A study of Caenorhabditis elegans with 12 samples.

Results

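The salt by genotype interaction asks which genes respond differently to NaCl against KCl when the p38 kinase gene pmk-1 is mutated. It was computed from all 12 of the 12 libraries of the study, 3 in each of 4 groups of Caenorhabditis elegans: pmk-1(km25) in NaCl, pmk-1(km25) in KCl, N2 in NaCl and N2 in KCl. For each gene the interaction is the salt effect in pmk-1 (NaCl over KCl) minus the salt effect in N2, on the log2 scale, so a positive value means that NaCl raised the gene more, or lowered it less, in the mutant. Genes with an interaction were then sorted by their salt effects into responses gained in the mutant, lost in the mutant, or present in both genotypes and larger in the mutant.

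N2 is the standard wild-type strain, and pmk-1(km25) carries a mutant allele of pmk-1 in every cell of the animal. Synchronized day 1 adults of both genotypes were rinsed in, and then held for 4 h in, 100 mM NaCl or 100 mM KCl, all without bacterial food, and RNA was taken from pools of whole animals labelled as biological replicates. NaCl was the low-potassium condition. Because swapping the salts also changes sodium, every salt effect below stands for NaCl over KCl, and the ions cannot be told apart. The study was set up to find genes that respond to low potassium and genes that depend on pmk-1.

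PMK-1 is the p38 mitogen-activated protein kinase of the worm. It is activated through the adaptor TIR-1 and the kinases NSY-1 and SEK-1, acts in part through the transcription factor ATF-7, and is best known for keeping up immune genes in the intestine and for the induction of antimicrobial peptide genes in the epidermis.

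Library totals ranged from 8931797 to 11445709 counts, and 13353 genes had enough counts to be tested. Reads of pmk-1 were present in both genotypes, with 231, 200 and 180 counts in pmk-1 NaCl and 206, 242 and 206 in pmk-1 KCl, against 217, 326 and 441 in N2 NaCl and 328, 308 and 358 in N2 KCl. What part of the gene km25 removes was not given in the sources used here, so these gene-level counts do not check the genotype label. The interaction of pmk-1 itself was 0.15 ± 0.26 on the log2 scale (standard error; edgeR quasi-likelihood test, Benjamini-Hochberg adjusted p = 0.981). Ribosomal RNA genes took 3.52, 4.32 and 5% of the counts in pmk-1 NaCl and 0.605, 1.49 and 3.26% in pmk-1 KCl, against 2.51, 0.931 and 1.02% in N2 NaCl and 1.7, 2.59 and 0.671% in N2 KCl, so the pmk-1 NaCl libraries stood above the other 9. The summed abundance of 65 sperm markers was 2550 to 8070 CPM (TMM-scaled counts per 1e+06, the unit of all abundances below) in pmk-1 NaCl and 2180 to 5160 in pmk-1 KCl, against 37.6 to 368 in N2 NaCl and 19.2 to 220 in N2 KCl, with 3 of the 65 at 0 in every library. The sum of 34 markers of later embryos was 129 to 175 CPM in pmk-1 NaCl and 139 to 228 in pmk-1 KCl, against 293 to 384 in N2 NaCl and 356 to 510 in N2 KCl, with none at 0. The sum of 19 oocyte markers was 6340 to 13900 CPM in pmk-1 NaCl and 9840 to 12300 in pmk-1 KCl, against 14900 to 15600 in N2 NaCl and 14800 to 15200 in N2 KCl. The sum of 10 epidermal markers was 1580 to 2450 CPM in pmk-1 NaCl and 1670 to 2400 in pmk-1 KCl, against 876 to 1130 in N2 NaCl and 920 to 1240 in N2 KCl. Sums of sperm and epidermal markers were thus higher, and those of embryo and oocyte markers lower, in pmk-1 than in N2 in both salts without overlap. A sum follows its most abundant members. As a mean of log2 CPM centred over the libraries, the 9 tested epidermal markers overlapped between genotypes. That score was -0.515 to 1.87 in pmk-1 NaCl against -0.458 to 0.34 in N2 NaCl. In KCl it was -0.253 to 0.462 in pmk-1 against -0.532 to -0.00291 in N2. In whole animals fewer cells of a type and less RNA per cell cannot be told apart. None of the 58 tested sperm markers and none of the 27 tested embryo markers had an interaction call, and their median interactions were -0.13 and -0.40. Over all tested genes 0.3% were called, so lists of this size would hold few or no calls at that share. Sums of markers of intestine (11), muscle (12) and pharynx (10) lay above N2 in pmk-1 NaCl without overlap and overlapped between genotypes in KCl, while those of neurons (12) and of the uterus and gonadal sheath (9) overlapped in both salts. By the mean log2 score, pmk-1 lay above N2 without overlap for intestine in KCl and for the uterus and sheath in NaCl. All of these markers had counts. The part of any marker shift in the interactions was not tested.

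Most interactions were rises with NaCl that were gained or larger in the mutant, among them acdh-2 and asns-2 of amino acid and propionate metabolism and several UDP-glucuronosyltransferase genes. At an adjusted p under 0.05 the interaction was positive for 32 genes, 0.24% of those tested, and negative for 8 genes, 0.0599%. Of these 40 genes, 0.3% of those tested, 29 were responses gained in pmk-1, 7 were responses lost in pmk-1 and 4 were larger in pmk-1. A gained response passed the threshold in pmk-1 and not in N2, and a lost one the reverse. Not passing does not mean that a response was absent. The N2 salt effect ran from -0.59 to 1.52 in the 27 gained rises, with a median of 0.28. It ran from 0.88 to 2.18 in the 4 larger ones. No called gene had a smaller response in pmk-1, opposite called responses in the 2 genotypes, or no called response in either. The positive interactions ran from 0.76 to 5.35 with a median of 2.26, and the negative ones from -3.92 to -1.21 with a median of -1.44, where the median over all genes tested was -0.02. In all, 639 positive and 401 negative interactions, the called ones included, had an unadjusted p under 0.05, or 7.79% of genes.

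**Figure D1:**
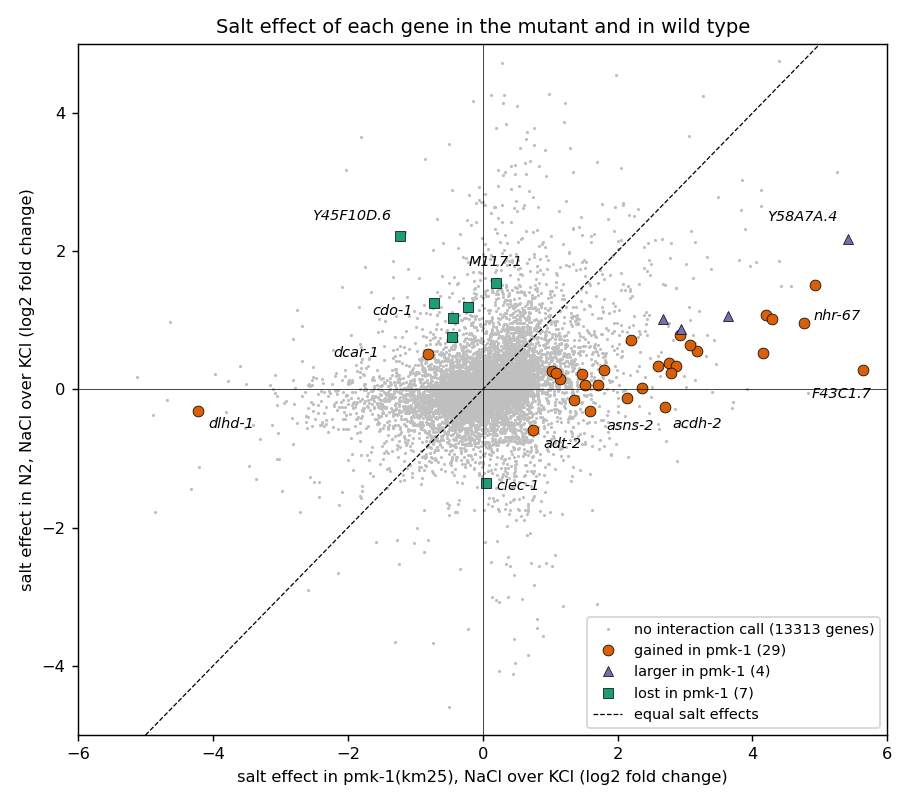
Salt effect (NaCl over KCl, log2 fold change) of each tested gene in pmk-1(km25) on the x axis and in N2 on the y axis, with the equality line dashed; 7 genes lie outside the axes. The 29 gained genes (circles) and 4 larger ones (triangles) lie below the line, dcar-1 and dlhd-1 excepted, while the lost genes (squares) lie above it, clec-1 excepted.

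The called genes are a small part of the salt response as a whole. NaCl raised 533 genes (3.99%) and lowered 146 (1.09%) in pmk-1, and raised 108 (0.809%) and lowered 23 (0.172%) in N2. Of the 679 genes with a salt effect in pmk-1, 33, or 4.86%, also had an interaction call, and 646 did not. Of the 131 genes with a salt effect in N2, 11, or 8.4%, had an interaction call, and 120 did not. For the genes without one, being called in only one genotype is not evidence that the genotypes differ.

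Within each replicate number, the NaCl minus KCl difference of log2 CPM was compared between genotypes. In 32 called genes the 3 pmk-1 differences lay entirely above the 3 N2 differences, as in 10.4% of all tested genes, and in 8 entirely below them, as in 8.51%. Together the 40 of 40 compare with 18.9% of all tested genes. In 9 of the 40 the 3 mutant differences had one sign and the 3 N2 differences the other, against 3.48% of all tested genes. The 9 were acdh-2, adt-2, nhr-137, dcar-1, Y45F10D.6, C27B7.9, cdo-1, T05A7.1 and M79.2. These counts come from the libraries that made the calls and add no independent support to them. The interaction had the same sign on the linear CPM scale in 40 of 40 genes.

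**Figure D2:**
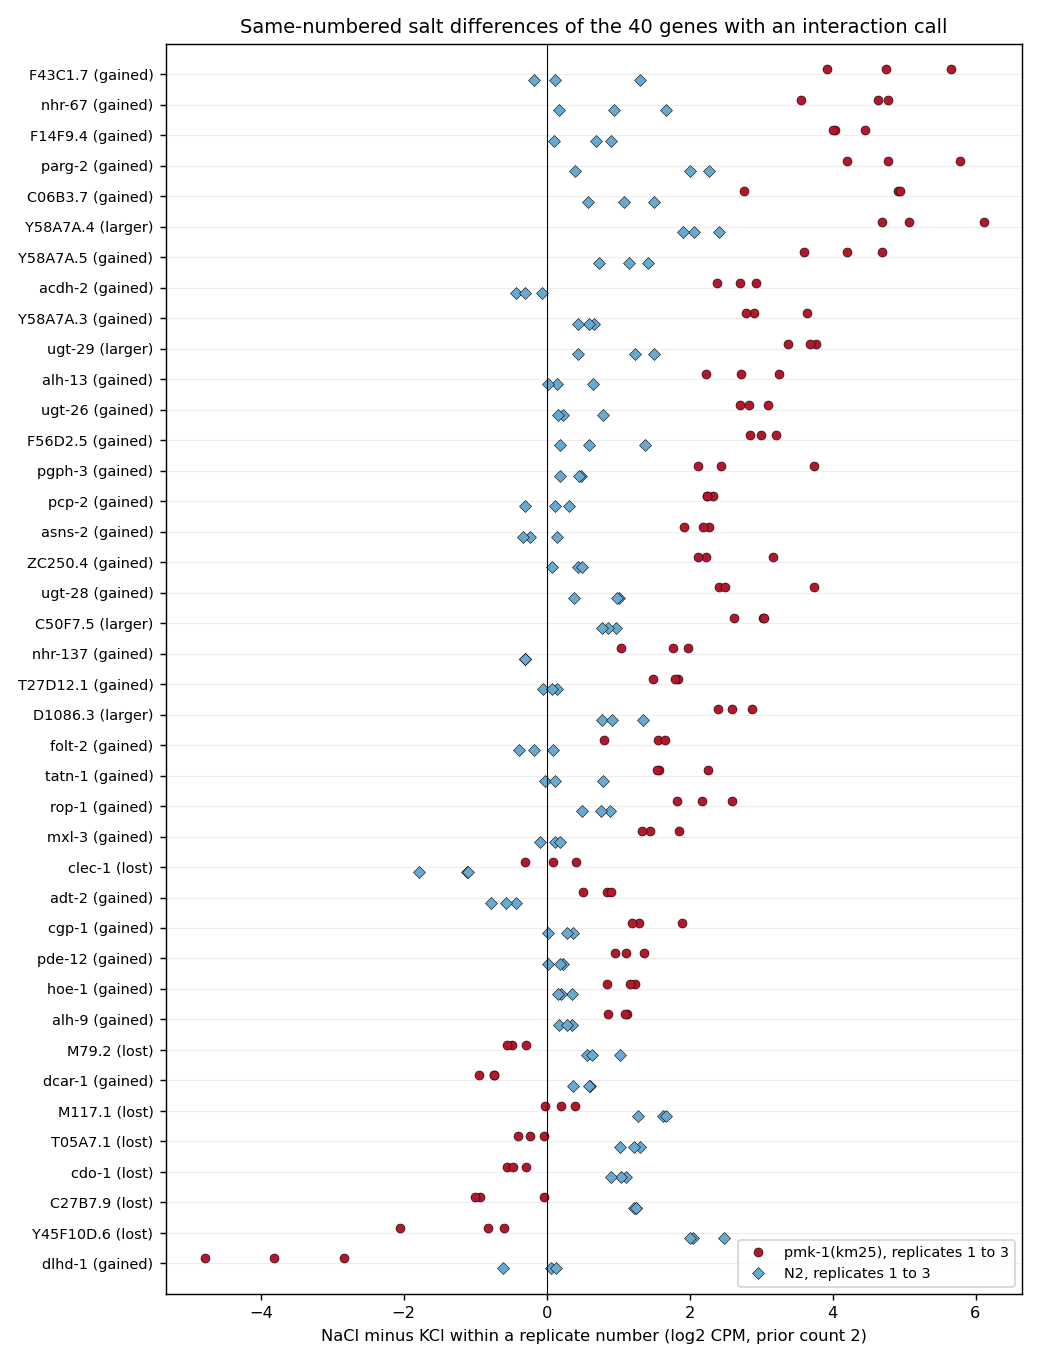
NaCl minus KCl difference of log2 CPM (prior count 2) within each replicate number for the 40 called genes, with pmk-1(km25) as red circles above N2 as blue diamonds in each row, sorted by interaction. The circles and diamonds do not overlap in any row, and the order runs from F43C1.7 with an interaction of 5.35 to dlhd-1 with -3.92.

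The calls depend on the replicate block, which the comparison uses by its definition. Without it, 5 genes were called as positive and 0 as negative, namely acdh-2, asns-2, T27D12.1, Y58A7A.3 and Y58A7A.5, while 669 genes had an unadjusted p under 0.05. Leaving out replicate 1 from all groups gave 96 positive and 86 negative calls, 39 of the 40 among them, and leaving out replicate 2 or replicate 3 gave 0 calls, with 489 and 663 genes at an unadjusted p under 0.05 by edgeR, the tool run there. Leaving out 1 library gave 14 calls without pmk-1 NaCl replicate 2, 3 without pmk-1 KCl replicate 2 and 2 without pmk-1 KCl replicate 3. It gave 20, 9 and 7 calls without N2 NaCl replicate 1, 2 or 3, and 2 and 4 without N2 KCl replicate 2 or 3, while the other 4 libraries left 30 to 49. With the ribosomal RNA share as a covariate 27 positive and 8 negative interactions were called, and 21 of the 40 were among them. With the embryo marker score as a covariate the calls were 37 and 10, and 35 of the 40 were among them.

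**Figure D3:**
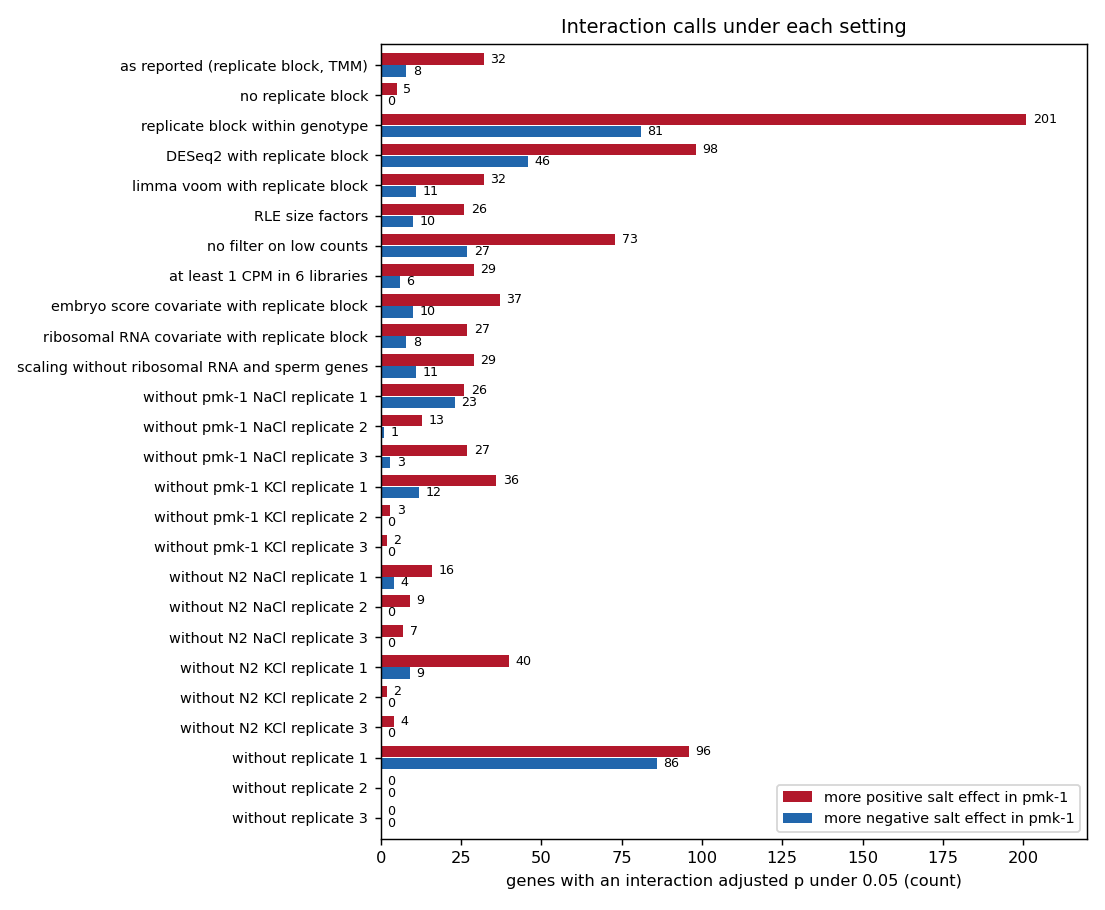
Number of genes with an interaction adjusted p under 0.05 (x axis) under each setting (rows), positive interactions in red above negative ones in blue. Calls number 32 and 8 as reported, 5 and 0 without the replicate block, and 0 and 0 without replicate 2 or without replicate 3.

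The gained responses of acdh-2 and asns-2 held when any 1 library was left out, and both genes were low in mutants held in KCl. acdh-2 encodes a member of the acyl-CoA dehydrogenase family, and asns-2 a member of the asparagine synthetase family. acdh-2 had 146, 122 and 134 CPM in pmk-1 NaCl and 19.1, 23.1 and 20.3 CPM in pmk-1 KCl, against 71.1, 115.4 and 116 CPM in N2 NaCl and 95.6, 121 and 143 CPM in N2 KCl. The pmk-1 KCl libraries were below all others, and the pmk-1 NaCl libraries overlapped those of N2. The salt effect was 2.7 ± 0.18 in pmk-1 and -0.26 ± 0.16 in N2, an interaction of 2.95 ± 0.24 (edgeR quasi-likelihood test, adjusted p = 6.36e-04). Part of acdh-2 overlaps ins-13 on the same strand in the annotation.

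asns-2 had 229, 196 and 232 CPM in pmk-1 NaCl and 47.4, 51.5 and 50.55 CPM in pmk-1 KCl, against 198, 146 and 118 CPM in N2 NaCl and 179.8, 173 and 149 CPM in N2 KCl. Again only pmk-1 KCl stood clear of the other 3 groups. Its salt effect was 2.13 ± 0.16 in pmk-1 and -0.13 ± 0.15 in N2, an interaction of 2.26 ± 0.21 (edgeR quasi-likelihood test, adjusted p = 0.00161). Over the 12 left-out libraries the interactions were 2.65 to 3.06 for acdh-2 and 2.08 to 2.46 for asns-2. The other 38 called genes each lost the call without at least 1 library. Of these, ugt-29 and C50F7.5 kept it most often, in 9 of the 12 fits. alh-9, hoe-1, M79.2, mxl-3 and nhr-137 kept it in only 1 of 12.

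Among 22 tested genes of amino acid and propionate metabolism, these 2 had a positive interaction call, none a negative one, and 20 did not pass, where 0.3% of all tested genes were called. This list and those below were chosen with earlier results of these data known, so their counts are a description. The list's median was 0.28, with 20 of 22 values above 0, beside a median of -0.02 and 6401 of 13353 values above 0 over all genes. Genes of the list that did not pass included hphd-1 (0.67 ± 0.19) and hach-1 (0.56 ± 0.18) of propionate breakdown and the stress-response transcription factor atf-4 (0.49 ± 0.16), with adjusted p-values of 0.250, 0.364 and 0.366 in the edgeR quasi-likelihood test.

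Other gained genes with metabolic roles shared the low level in mutant KCl animals to differing degrees. tatn-1, which encodes tyrosine aminotransferase, had 316, 238 and 206 CPM in pmk-1 NaCl and 66, 80.05 and 70.6 CPM in pmk-1 KCl, against 170.3, 134 and 129 CPM in N2 NaCl and 98.8, 135 and 118.9 CPM in N2 KCl. The mutant libraries lay above all 6 N2 libraries in NaCl and below all of them in KCl, and the interaction was 1.51 ± 0.24. folt-2, of the folate transporter family, had 190.5, 116.6 and 177 CPM in pmk-1 NaCl and 64.7, 66.8 and 56 CPM in pmk-1 KCl, against 376, 419 and 429 CPM in N2 NaCl and 494, 473 and 403 CPM in N2 KCl. Mutant levels of folt-2 were thus below N2 in both salts, and NaCl raised it in pmk-1 by 1.36 ± 0.17 where the effect in N2 was -0.16 ± 0.16, an interaction of 1.52 ± 0.23. The phosphoglycolate phosphatase homolog pgph-3 (2.38 ± 0.33) and the aldehyde dehydrogenase family genes alh-13 (2.56 ± 0.41) and alh-9 (0.76 ± 0.14) also had gained responses. In the annotation alh-13 overlaps nhr-27 on the opposite strand, which had next to no counts. The adjusted p of these 5 genes lay between 0.0167 and 0.0464 in the edgeR quasi-likelihood test.

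Detoxification genes of the UDP-glucuronosyltransferase family, which join sugar acids to small molecules, made up the next group. Of 55 tested members, 3 had a positive interaction call, none a negative one, and 52 did not pass, where 0.3% of all tested genes were called. The family's median was 0.48, with 40 of 55 values above 0, and 16 positive and 1 negative value had an unadjusted p under 0.05, against 639 and 401 of all 13353 tested genes. ugt-29 had 387, 185 and 222.5 CPM in pmk-1 NaCl and 28.3, 17.7 and 17.2 CPM in pmk-1 KCl, against 139, 118.7 and 70.2 CPM in N2 NaCl and 48.8, 50.4 and 51.8 CPM in N2 KCl. All 4 groups were separate, with the mutant above N2 in NaCl and below it in KCl. NaCl raised ugt-29 in both genotypes, by 3.63 ± 0.23 in pmk-1 and 1.06 ± 0.21 in N2, so the response was larger in the mutant by 2.58 ± 0.31 (edgeR quasi-likelihood test, adjusted p = 0.00964).

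ugt-26 and ugt-28, close neighbours in the genome, were gained responses with interactions of 2.52 ± 0.37 and 2.14 ± 0.34. ugt-26 had 263, 113 and 139 CPM in pmk-1 NaCl and 39.98, 15.7 and 16.06 CPM in pmk-1 KCl, against 162, 134 and 121 CPM in N2 NaCl and 93.8, 115.1 and 108 CPM in N2 KCl. ugt-28 had 114.7, 78.3 and 72.4 CPM in pmk-1 NaCl and 8.39, 14.6 and 12.64 CPM in pmk-1 KCl, against 52.1, 70.07 and 51.5 CPM in N2 NaCl and 25.75, 35.3 and 39.6 CPM in N2 KCl. For both, pmk-1 KCl lay below all other libraries, whereas in NaCl the mutant overlapped N2 for ugt-26 and exceeded it for ugt-28. ugt-25, the next gene beside ugt-28, rose with NaCl by 3.83 ± 0.23 in pmk-1 and by 2.59 ± 0.22 in N2, and its interaction of 1.24 ± 0.30 did not pass (edgeR quasi-likelihood test, adjusted p = 0.176).

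**Figure D4:**
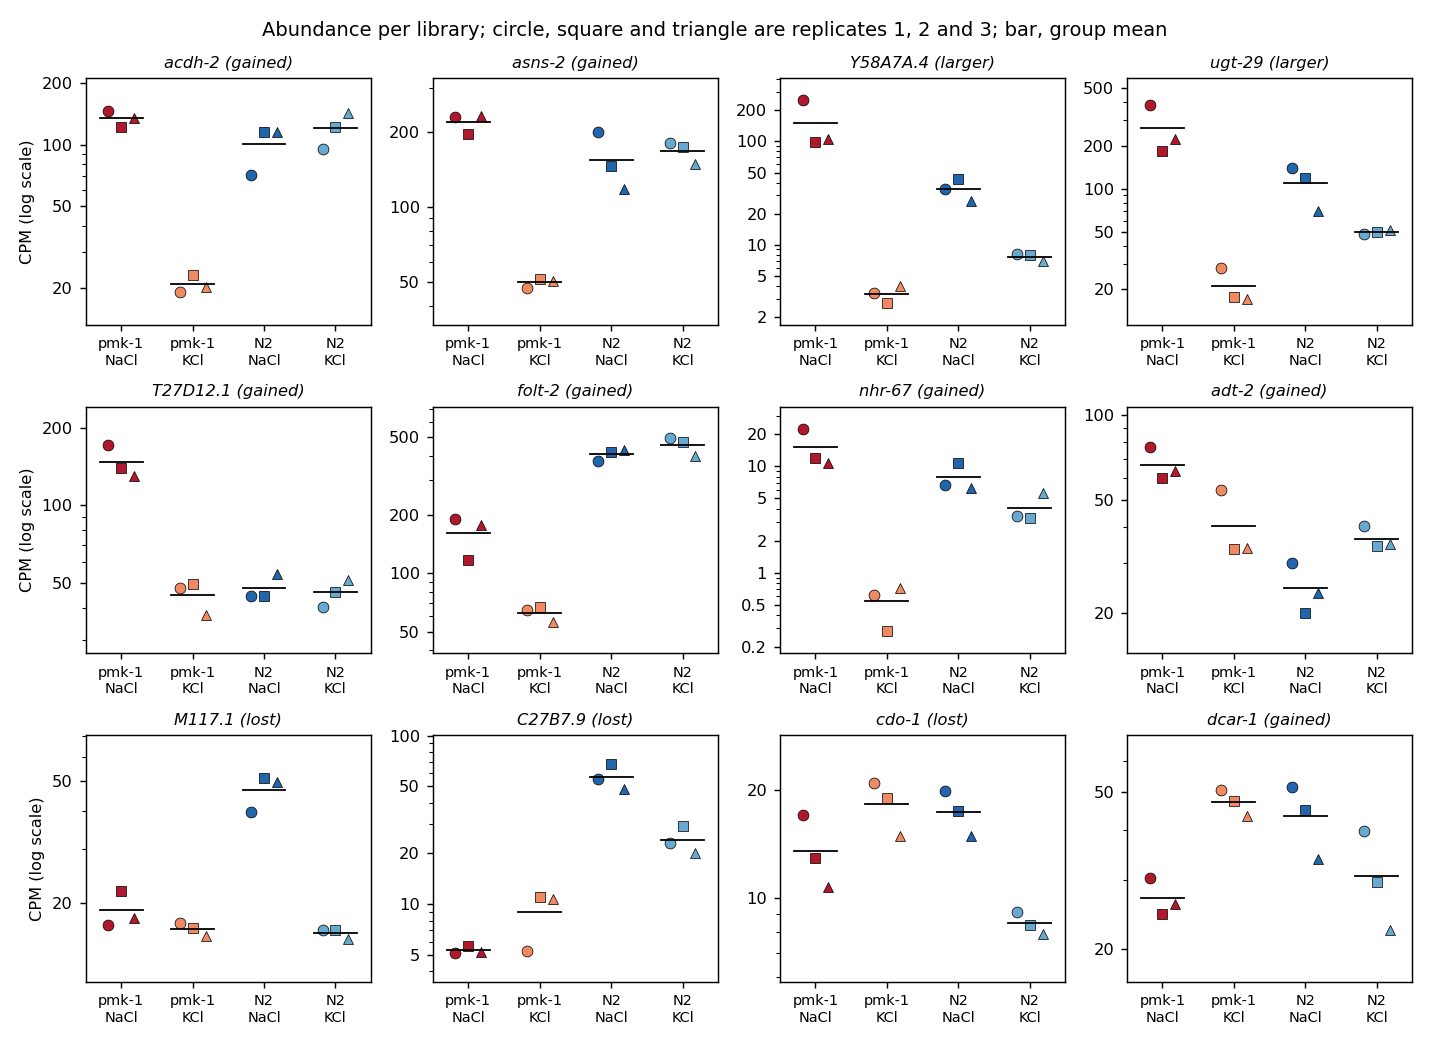
CPM (log scale) of 12 called genes in each library, with pmk-1 NaCl, pmk-1 KCl, N2 NaCl and N2 KCl from left to right, a symbol for each replicate number and a bar at the group mean. In acdh-2, asns-2, Y58A7A.4, ugt-29, folt-2 and nhr-67 the pmk-1 KCl libraries are the lowest, while in M117.1 and C27B7.9 the N2 NaCl libraries are the highest.

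The adjacent genes Y58A7A.3, Y58A7A.4 and Y58A7A.5 all responded more to NaCl in the mutant. Y58A7A.4 had 250.4, 97.9 and 107 CPM in pmk-1 NaCl and 3.42, 2.73 and 3.94 CPM in pmk-1 KCl, against 34.4, 42.9 and 26.6 CPM in N2 NaCl and 8.10, 7.91 and 6.92 CPM in N2 KCl. All 4 groups were separate. Its salt effect was 5.41 ± 0.34 in pmk-1 and 2.18 ± 0.30 in N2, an interaction of 3.23 ± 0.44 (edgeR quasi-likelihood test, adjusted p = 0.0167). Y58A7A.5 (3.13 ± 0.38) and Y58A7A.3 (2.61 ± 0.33) were classed as gained, though their N2 effects, 1.08 ± 0.25 and 0.56 ± 0.23, were also positive and did not pass. Y58A7A.3 reached 622, 324 and 280.2 CPM in pmk-1 NaCl and 49.4, 43.1 and 40.5 CPM in pmk-1 KCl, against 188, 223 and 196 CPM in N2 NaCl and 118.5, 147.5 and 144 CPM in N2 KCl. Y58A7A.1 nearby had an interaction of 1.38 ± 0.51, which did not pass (edgeR quasi-likelihood test, adjusted p = 0.479).

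The other responses that were larger in the mutant were C50F7.5 and D1086.3, known only by sequence names. C50F7.5 had 67.6, 85.7 and 63.6 CPM in pmk-1 NaCl and 10.8, 10.35 and 7.56 CPM in pmk-1 KCl, against 86.2, 85.9 and 41.6 CPM in N2 NaCl and 44.0, 47.1 and 24.3 CPM in N2 KCl. Its mutant NaCl level fell within the N2 NaCl range, and the groups differed in KCl, where the mutant was lower. The interactions were 2.06 ± 0.25 for C50F7.5 and 1.65 ± 0.24 for D1086.3.

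The called genes also held regulators of transcription. nhr-67, a nuclear receptor of the tailless family, had 22.5, 12 and 10.8 CPM in pmk-1 NaCl and 0.621, 0.282 and 0.725 CPM in pmk-1 KCl, against 6.68, 10.7 and 6.32 CPM in N2 NaCl and 3.38, 3.24 and 5.61 CPM in N2 KCl. Mutant libraries lay above all N2 libraries in NaCl and below them in KCl. Its salt effect was 4.76 ± 0.48 in pmk-1 and 0.96 ± 0.38 in N2, an interaction of 3.80 ± 0.62 (edgeR quasi-likelihood test, adjusted p = 0.0282), and mutant KCl levels rest on a few reads per library. nhr-137, another nuclear receptor, had 9.59, 11.8 and 17.1 CPM in pmk-1 NaCl and 2.28, 5.64 and 4.87 CPM in pmk-1 KCl, against 9.69, 11.1 and 13.3 CPM in N2 NaCl and 12, 13.8 and 16.54 CPM in N2 KCl. NaCl raised it in pmk-1, the N2 difference was negative in all 3 replicate numbers without passing, and the interaction was 1.90 ± 0.33. Of 163 tested nuclear hormone receptors these 2 had a positive call, none a negative one, and 161 did not pass, where 0.3% of all tested genes were called, and the family median was 0.03. The Max-like factor mxl-3 was gained with an interaction of 1.46 ± 0.25.

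In T27D12.1 and adt-2 the pmk-1 NaCl libraries stood above all others. T27D12.1 had 172, 139.5 and 130 CPM in pmk-1 NaCl and 47.7, 49.5 and 37.4 CPM in pmk-1 KCl, against 44.6, 44.3 and 54.3 CPM in N2 NaCl and 40.4, 46.0 and 51.3 CPM in N2 KCl. The other 3 groups overlapped, and the interaction was 1.66 ± 0.23. adt-2, which encodes a secreted metalloprotease of the ADAMTS family, had 76.8, 59.98 and 63.4 CPM in pmk-1 NaCl and 54.1, 33.5 and 33.8 CPM in pmk-1 KCl, against 30.1, 19.96 and 23.4 CPM in N2 NaCl and 40.4, 34.3 and 34.9 CPM in N2 KCl. NaCl raised adt-2 by 0.75 ± 0.13 in pmk-1, the N2 effect of -0.59 ± 0.13 did not pass, and the interaction was 1.34 ± 0.19 (edgeR quasi-likelihood test, adjusted p = 0.0167).

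The remaining gained genes with a positive interaction included rop-1, the worm Ro ribonucleoprotein (1.49 ± 0.22), the GTP-binding protein gene cgp-1 (1.25 ± 0.20), and hoe-1, which encodes the transfer RNA processing enzyme RNase Z (0.85 ± 0.15). Also gained were parg-2, a poly(ADP-ribose) glycohydrolase gene (3.41 ± 0.61), the prolyl carboxypeptidase-like gene pcp-2 (2.34 ± 0.40) and the phosphodiesterase gene pde-12 (0.99 ± 0.16). parg-2 had 118.7, 63.04 and 49.5 CPM in pmk-1 NaCl and 4.14, 0.941 and 2.49 CPM in pmk-1 KCl, against 16.14, 15.2 and 8.87 CPM in N2 NaCl and 3.18, 3.62 and 6.72 CPM in N2 KCl. In KCl the genotypes overlapped for parg-2, and in NaCl the mutant was above N2. The N2 salt effect of parg-2, 1.52 ± 0.42, was also positive and did not pass. rop-1 and cgp-1 overlap the well-counted genes akt-1 and picd-1 on the opposite strand, and whether counting used strand is not given in the sources used here.

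Further gained genes are known by sequence names. F14F9.4 had 215, 105 and 89.4 CPM in pmk-1 NaCl and 12.9, 4.61 and 5.39 CPM in pmk-1 KCl, against 46.4, 59.4 and 41.9 CPM in N2 NaCl and 24.7, 36.7 and 39.0 CPM in N2 KCl. Mutant libraries lay above all N2 libraries in NaCl and below all of them in KCl, and the interaction was 3.63 ± 0.50. F43C1.7, the largest positive value at 5.35 ± 0.83, had 25.8, 10.4 and 7.65 CPM in pmk-1 NaCl and 0.311, 0.188 and 0.311 CPM in pmk-1 KCl, against 2.34, 2.49 and 2.19 CPM in N2 NaCl and 0.821, 2.29 and 2.51 CPM in N2 KCl, so its size rests on a few reads per mutant KCl library. C06B3.7 (3.27 ± 0.55), F56D2.5 (2.42 ± 0.42) and ZC250.4 (2.25 ± 0.36) complete the group.

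The levels behind the gained responses were described by where the mutant libraries lay relative to all 6 N2 libraries. Of the 27 gained genes with a positive interaction, 22 had all 3 pmk-1 KCl libraries below all 6 N2 libraries, a pattern of 17.3% of all tested genes. In the same 27, 19 had all 3 pmk-1 NaCl libraries above all 6 N2 libraries, a pattern of 24.7% of tested genes, and 14 had both. In 22 of the 27 the pmk-1 KCl libraries were below the other 9 libraries, against 2.59% of tested genes. The 4 larger responses had mutant KCl libraries below all N2 libraries in 4 and mutant NaCl libraries above them in 2. These patterns use the same libraries as the interaction and are given as a description. By gene, the gained rises thus came with low mutant levels in KCl, high mutant levels in NaCl, or both.

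A pair of genes gained a fall instead. dcar-1, which encodes a G protein-coupled receptor that acts in the epidermis upstream of antimicrobial peptide genes, had 30.25, 24.6 and 25.98 CPM in pmk-1 NaCl and 50.75, 47.5 and 43.6 CPM in pmk-1 KCl, against 51.4, 45.1 and 33.9 CPM in N2 NaCl and 39.9, 29.5 and 22.4 CPM in N2 KCl. The mutant groups were separate, and the N2 groups overlapped. NaCl lowered it in pmk-1 (-0.81 ± 0.15), the positive N2 effect of 0.52 ± 0.15 did not pass, and the interaction was -1.33 ± 0.21 (edgeR quasi-likelihood test, adjusted p = 0.0282). dlhd-1, of the dienelactone hydrolase family, had 0.799, 0.679 and 0.607 CPM in pmk-1 NaCl and 27.4, 6.11 and 11.3 CPM in pmk-1 KCl, against 0.668, 0.208 and 0.351 CPM in N2 NaCl and 1.13, 0.191 and 0.301 CPM in N2 KCl. Its interaction was -3.92 ± 0.70, and the pmk-1 KCl libraries stood above the other 9 at widely spread levels. The lowest group of dlhd-1 held 12 reads in all, so the size of its interaction rests on few reads.

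Responses lost in the mutant were fewer, and 6 of the 7 were rises with NaCl in N2. M117.1, known by its sequence name, had 17.01, 21.96 and 17.97 CPM in pmk-1 NaCl and 17.3, 16.6 and 15.6 CPM in pmk-1 KCl, against 39.7, 50.9 and 49.4 CPM in N2 NaCl and 16.3, 16.39 and 15.3 CPM in N2 KCl. The 3 N2 NaCl libraries stood above the other 9, which lay together. The salt effect was 0.19 ± 0.16 in pmk-1 and 1.54 ± 0.16 in N2, an interaction of -1.35 ± 0.22 (edgeR quasi-likelihood test, adjusted p = 0.0282).

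C27B7.9 and T05A7.1 were lower in pmk-1 than in N2 in both salts and rose with NaCl in N2. C27B7.9 had 5.14, 5.66 and 5.22 CPM in pmk-1 NaCl and 5.28, 11.01 and 10.7 CPM in pmk-1 KCl, against 55.0, 67.8 and 48.4 CPM in N2 NaCl and 22.98, 29.05 and 20.15 CPM in N2 KCl. T05A7.1 had 6.85, 13.4 and 12.02 CPM in pmk-1 NaCl and 9.11, 15.8 and 12.33 CPM in pmk-1 KCl, against 44.1, 52.7 and 46.35 CPM in N2 NaCl and 17.75, 22.5 and 22.8 CPM in N2 KCl. The groups of mutant and N2 libraries did not overlap for either gene, and the interactions were -1.97 ± 0.32 and -1.41 ± 0.25. Y45F10D.6 had the largest lost response by size, -3.46 ± 0.50, with 1.26, 0.679 and 0.243 CPM in pmk-1 NaCl and 2.38, 1.13 and 1.66 CPM in pmk-1 KCl, against 22.6, 16.8 and 15.2 CPM in N2 NaCl and 3.90, 3.91 and 3.61 CPM in N2 KCl. Y45F10D.6 overlaps Y45F10D.7 on the opposite strand, which had a mean of 769 counts, and whether counting used strand is not given. The lowest group of Y45F10D.6 held 19 reads in all, so its size rests on few reads. M117.1, C27B7.9, T05A7.1 and Y45F10D.6 had all 3 N2 NaCl libraries above the other 9, a pattern of 0.944% of tested genes.

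cdo-1, which encodes cysteine dioxygenase, had 17.01, 12.9 and 10.7 CPM in pmk-1 NaCl and 20.9, 19 and 14.9 CPM in pmk-1 KCl, against 19.9, 17.5 and 14.9 CPM in N2 NaCl and 9.13, 8.38 and 7.92 CPM in N2 KCl. Here N2 KCl was the low group, below the other 9 libraries, and the mutant libraries overlapped the N2 NaCl range in both salts. The salt effect was -0.44 ± 0.17 in pmk-1, which did not pass, and 1.03 ± 0.17 in N2, and the interaction was -1.47 ± 0.24 (edgeR quasi-likelihood test, adjusted p = 0.0282). In the annotation cdo-1 overlaps F56F10.2 on the opposite strand. M79.2 was also lost, with an interaction of -1.21 ± 0.22.

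The C-type lectin gene clec-1 was the lost response in the other direction. It had 118.9, 124 and 112 CPM in pmk-1 NaCl and 146, 93.4 and 105 CPM in pmk-1 KCl, against 52.99, 48.45 and 55.9 CPM in N2 NaCl and 115.1, 168 and 120.1 CPM in N2 KCl. NaCl lowered clec-1 in N2 (-1.36 ± 0.18), where the 3 libraries lay below the other 9, and its effect in pmk-1 was 0.05 ± 0.18, an interaction of 1.4 ± 0.25 (edgeR quasi-likelihood test, adjusted p = 0.0493). Of 86 tested C-type lectins it alone was called, where 0.3% of all tested genes were called. With the ribosomal RNA share as a covariate, 1 lost response was called in place of 7. There clec-1 had an interaction of 1.45 that did not pass (edgeR quasi-likelihood test, adjusted p = 0.105). C27B7.9 and Y45F10D.6 kept an interaction call in that fit (edgeR quasi-likelihood test, adjusted p = 0.0129 and 0.0452). The drop in lost responses was thus in part a change of class.

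Components of the p38 cascade had no interaction call among 15 tested genes, with values from -0.46 to 1.61, a median of 0.15 and 4 positive values at an unadjusted p under 0.05. Over all tested genes 7.79% had such a p in either direction and 0.3% were called, also beside the counts of the lists that follow. At the latter share lists of these sizes would hold few or no calls, so having none does not set them apart. The kinase genes upstream of PMK-1 had interactions of 0.43 ± 0.31 (nsy-1) and 0.08 ± 0.25 (sek-1), the transcription factor gene atf-7 had 0.06 ± 0.13, and the paralog pmk-2 had 0.29 ± 0.37. The largest value belonged to tir-1, the adaptor at the top of the cascade, with 74.3, 69.7 and 49.3 CPM in pmk-1 NaCl and 22.4, 20.4 and 15.3 CPM in pmk-1 KCl, against 32.5, 43.7 and 49.95 CPM in N2 NaCl and 28.5, 41.5 and 46.1 CPM in N2 KCl. NaCl raised tir-1 in pmk-1 by 1.73 ± 0.24, but the interaction of 1.61 ± 0.33 did not pass (edgeR quasi-likelihood test, adjusted p = 0.0853). The Tribbles-like gene nipi-3 was similar, with a salt effect of 1.21 ± 0.12 in pmk-1 and an interaction of 0.83 ± 0.17 (edgeR quasi-likelihood test, adjusted p = 0.0911).

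Known intestinal effectors of PMK-1 also had no call. The 13 tested genes had a median interaction of 1.01, with 11 values above 0 and 3 positive ones at an unadjusted p under 0.05, those of dod-24, lys-1 and lys-2. dod-24 had 1.03, 1.13 and 0.850 CPM in pmk-1 NaCl and 0.104, 0.094 and 0.311 CPM in pmk-1 KCl, against 27.7, 24.7 and 28.97 CPM in N2 NaCl and 25.4, 25.8 and 28.2 CPM in N2 KCl. The mutant level was far below N2 in both salts, and the interaction of 2.47 ± 0.49 did not pass (edgeR quasi-likelihood test, adjusted p = 0.0693). Its size rests on a few reads per mutant KCl library. On the linear CPM scale the change in pmk-1 minus that in N2 was 0.16 for dod-24. The lysozyme gene lys-1 had an interaction of 1.01 ± 0.21, which did not pass either (edgeR quasi-likelihood test, adjusted p = 0.0819).

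The epidermal antimicrobial peptide genes, of the nlp and cnc families, pointed the other way without passing. Among 9 tested genes none was called, 7 had negative interactions, 3 of them at an unadjusted p under 0.05, and the median was -1.63. The summed epidermal markers were higher in pmk-1 in both salts, though their mean log2 score overlapped between genotypes. The part of these markers in the values of the list was not tested. In pmk-1 the median salt effect of the list was 0.25 and 1 member rose with NaCl, while in N2 the median was 2.02 and 3 members rose. nlp-31 had 2.51, 1.02 and 0.971 CPM in pmk-1 NaCl and 4.56, 1.13 and 1.97 CPM in pmk-1 KCl, against 49.3, 87.5 and 55.05 CPM in N2 NaCl and 15.1, 17.05 and 15.4 CPM in N2 KCl. Every mutant library lay below every N2 library. Its interaction was -2.75 ± 0.62 (edgeR quasi-likelihood test, adjusted p = 0.124). Levels of other peptide genes in KCl differed. nlp-27 had 84.6, 79.8 and 68.2 CPM in pmk-1 KCl against 35.9, 33.9 and 26.4 in N2 KCl. nlp-28 was also higher there in pmk-1, with 19.2, 21.1 and 19.9 CPM against 15.4, 17.5 and 14.7. In KCl nlp-30 and cnc-4 were lower in pmk-1, and nlp-29 and cnc-2 overlapped between genotypes. The list's median was 0.26 without pmk-1 KCl replicate 1, the library in which several of these genes had their highest mutant KCl level, and -0.23 with the ribosomal RNA share as a covariate.

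Genes chosen after their values were seen, for the same epidermal pathway, also missed the threshold. The STAT-like factor gene sta-2 had 15.4, 12 and 8.38 CPM in pmk-1 NaCl and 15.1, 14.02 and 9.22 CPM in pmk-1 KCl, against 20.8, 17.9 and 18.5 CPM in N2 NaCl and 7.69, 8.19 and 7.12 CPM in N2 KCl. The mutant groups overlapped, and the N2 groups were separate. NaCl raised it in N2 by 1.32 ± 0.21, and its interaction was -1.42 ± 0.29 (edgeR quasi-likelihood test, adjusted p = 0.0835). The G protein alpha subunit gene gpa-12 rose in N2 by 1.27 ± 0.23 and had an interaction of -1.54 ± 0.32 (edgeR quasi-likelihood test, adjusted p = 0.0911). Of the genes given above, tir-1 (1.61 ± 0.33), nsy-1 (0.43 ± 0.31) and sek-1 (0.08 ± 0.25), upstream of PMK-1, had positive values that did not pass. So did nipi-3 (0.83 ± 0.17), and sta-2 and gpa-12 do not stand for the pathway as a whole.

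**Figure D5:**
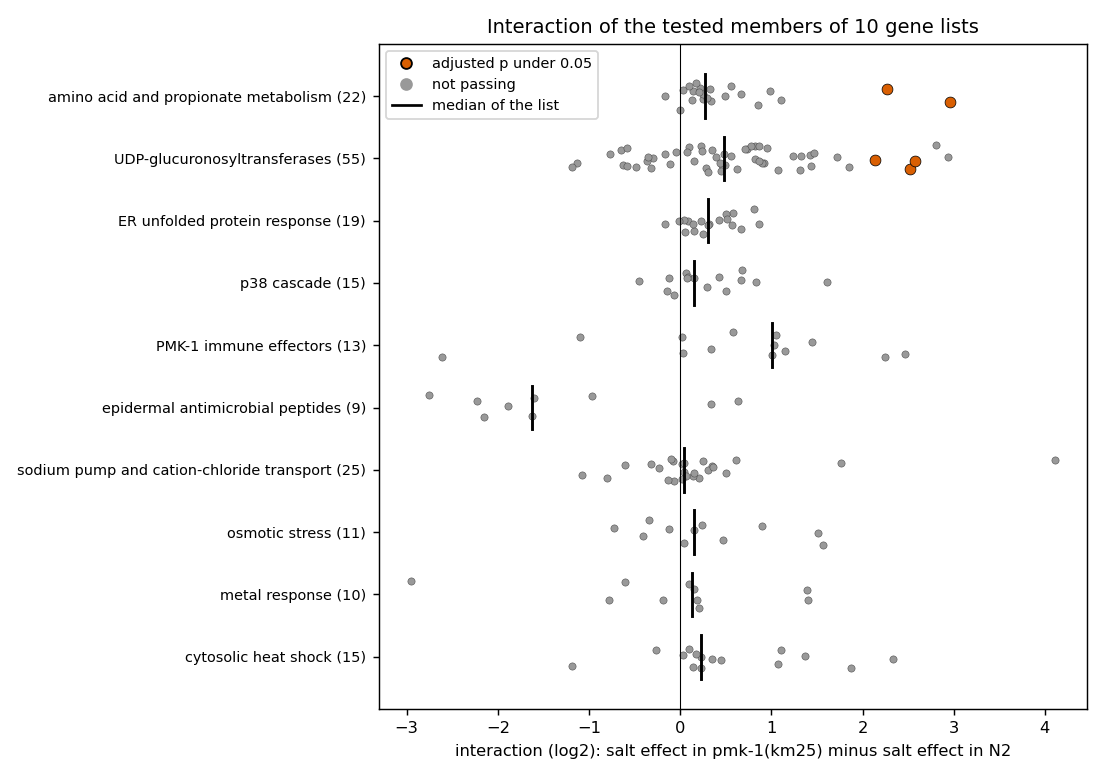
Interaction (log2) of the tested members of 10 gene lists, with called genes in orange, other genes in grey and the list median as a bar; the number of tested members stands in brackets. Called members lie in the top lists, amino acid and propionate metabolism (2) and UDP-glucuronosyltransferases (3), and the epidermal antimicrobial peptides have the lowest median, -1.63.

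Other stress and transport lists held no call. Among 40 lists, 36 had no called member, where 0.3% of all tested genes were called and most lists are too short to hold many calls at that share. The 25 tested sodium pump and cation-chloride transport genes had a median of 0.04. Within that list catp-1, of the sodium pump alpha subunit family, had a salt effect of 0.30 ± 0.22 in pmk-1 and rose with NaCl by 1.38 ± 0.22 in N2, and the interaction of -1.07 ± 0.32 did not pass (edgeR quasi-likelihood test, adjusted p = 0.292). catp-3, of the same family, had more reads and an interaction in the other direction on the log2 scale. On the linear CPM scale the change in pmk-1 minus that in N2 was negative for both, -18.05 for catp-1 and -534 for catp-3. The latter had 234, 89.5 and 46.0 CPM in pmk-1 NaCl and 13.3, 3.86 and 1.14 CPM in pmk-1 KCl, against 814, 784 and 726 CPM in N2 NaCl and 79.8, 131.6 and 159 CPM in N2 KCl. In each salt every mutant library lay below every N2 library. NaCl raised catp-3 by 4.31 ± 0.62 in pmk-1 and 2.55 ± 0.52 in N2, and the interaction of 1.77 ± 0.78 did not pass (edgeR quasi-likelihood test, adjusted p = 0.617). For the unfolded protein response of the endoplasmic reticulum, the 19 genes had a median of 0.30, 17 values above 0 and 6 positive ones at an unadjusted p under 0.05. Over all 13353 genes, 6401 values were above 0 and 639 positive ones had such a p. Medians were 0.15 for 11 osmotic stress genes, 0.23 for 15 cytosolic heat shock genes and 0.13 for 10 metal-response genes. In the last list the metallothionein gene mtl-1 had 14.04, 8.26 and 2.91 CPM in pmk-1 NaCl and 94.8, 18.1 and 62.98 CPM in pmk-1 KCl, against 14.9, 5.61 and 6.41 CPM in N2 NaCl and 10.3, 8.86 and 3.91 CPM in N2 KCl. The pmk-1 KCl libraries stood above the other 9. NaCl lowered mtl-1 in pmk-1 (-2.82 ± 0.49), with an interaction of -2.95 ± 0.69 that did not pass (edgeR quasi-likelihood test, adjusted p = 0.137).

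Just inside the threshold were hoe-1, clec-1 and M79.2, and just outside it mrp-2 (1.29 ± 0.24), calu-1 (0.94 ± 0.17), acp-6 (1.39 ± 0.26) and nid-1 (1.24 ± 0.23), with positive interactions close to those of called genes.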

How the data were processed

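The table as deposited holds expected counts per gene for 12 libraries, whole numbers that the authors had not normalized. STAR 2.7.1a and RSEM 1.3.3 appear in the submitters' processing notes beside DESeq2 1.40.2 and R 4.3.1. The role of each, the build, the annotation and strandedness were not given in the sources used here. Of 46904 genes, 44017 matched a name and 19509 had a count. The 13353 genes kept by filterByExpr were scaled by TMM and fitted with edgeR 4.0.16 (quasi-likelihood, R 4.3.3), with 1 mean per group and the replicate number as block, and p-values were adjusted by Benjamini-Hochberg over all of them and called under 0.05. The standard error is the log2 value over the square root of F. The script was tested on simulated data.

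Replicate pairs differed beyond read sampling (chi-square per degree of freedom 4.88 to 69.8). In pmk-1, pairs that held replicate 1 gave 53.3 to 69.8. Replicates 2 and 3 gave 4.88 in pmk-1 NaCl and 18.1 in pmk-1 KCl, and pairs of N2 gave 6.84 to 28. Deviations of same-numbered libraries correlated at 0.07 to 0.74, 1 of 18 below 0.1, and those of different-numbered libraries at -0.65 to 0.52. pmk-1 NaCl replicate 2 correlated with pmk-1 KCl replicate 3 at 0.52 and with pmk-1 KCl replicate 2 at 0.39. The numbers therefore do not establish pairs, and the block follows the definition of the comparison. Comparison, lists and tests were chosen with earlier results of these data known. Genes named were called ones with a mean of at least 5 CPM (the 10 largest with gene names and 2 largest with sequence names each way, 4 of smallest p per class, and list members). Other called genes, including F43C1.7 and dlhd-1 under 5 CPM, and uncalled list members and neighbours were named after their values were seen. Names, neighbours and overlaps came from WBcel235 (Ensembl release 115). Promoter sequences were not used here. Alternatives used limma 3.58.1 and DESeq2 1.42.0, other scaling, filters, covariates and left-out libraries.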

Additional observations from a re-analysis of the deposited data

Results flagged for a closer look

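The interaction is itself a test of whether the salt effect differs between pmk-1 and N2, and each gene below passed it (edgeR quasi-likelihood test, Benjamini-Hochberg adjusted p under 0.05). Values are log2, the salt effect in pmk-1 minus that in N2.

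Gained responses with a positive value were F43C1.7 (5.35), nhr-67 (3.80), F14F9.4 (3.63), parg-2 (3.41), C06B3.7 (3.27), Y58A7A.5 (3.13), acdh-2 (2.95), Y58A7A.3 (2.61) and alh-13 (2.56). They were followed by ugt-26 (2.52), F56D2.5 (2.42), pgph-3 (2.38), pcp-2 (2.34), asns-2 (2.26), ZC250.4 (2.25), ugt-28 (2.14), nhr-137 (1.90), T27D12.1 (1.66) and folt-2 (1.52). Smaller gained values were those of tatn-1 (1.51), rop-1 (1.49), mxl-3 (1.46), adt-2 (1.34), cgp-1 (1.25), pde-12 (0.99), hoe-1 (0.85) and alh-9 (0.76). The gained falls were dcar-1 (-1.33) and dlhd-1 (-3.92). Responses larger in pmk-1 were Y58A7A.4 (3.23), ugt-29 (2.58), C50F7.5 (2.06) and D1086.3 (1.65). Lost responses were Y45F10D.6 (-3.46), C27B7.9 (-1.97), cdo-1 (-1.47), T05A7.1 (-1.41), M117.1 (-1.35), M79.2 (-1.21) and clec-1 (1.4).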

How the results depend on the processing

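Counts below are positive and negative interactions, then gained, lost and larger responses. As reported they were 32, 8, 29, 7 and 4. They were 5, 0, 5, 0 and 0 with no replicate block, with 669 genes at an unadjusted p under 0.05, and 201, 81, 213, 38 and 23 with the block within genotype. DESeq2 gave 98, 46, 98, 24 and 14, and no filter on low counts 73, 27, 69, 18 and 11. The ribosomal RNA covariate gave 1 lost response, and its other counts, like those under limma voom, RLE scaling, a CPM filter, an embryo score covariate and scaling without ribosomal RNA and sperm genes (chosen after the data were seen), stayed within 1.5 times. Without replicate 1 the counts were 96, 86, 118, 32 and 15, and without replicate 2 or replicate 3 they were 0, with 489 and 663 genes at an unadjusted p under 0.05. Leaving out 1 library gave 2 to 40, 0 to 23, 2 to 43, 0 to 14 and 0 to 9, with 2 calls in all without N2 KCl replicate 2 or pmk-1 KCl replicate 3 and 3 without pmk-1 KCl replicate 2. The causes were not tested.

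All 40 genes kept their sign in every setting that tested them, and 461 of 999 values for single genes fell short of the threshold. The settings reuse the libraries that made the calls, and the same-numbered differences of these genes did not overlap between genotypes. The kept sign therefore adds no independent support. acdh-2 and asns-2 stayed called without any 1 library and in 10 of 10 other settings, but not without replicate 2 or replicate 3. The median interaction of epidermal antimicrobial peptides was -1.63 and ran from -2.34 to 0.26 over the left-out libraries, positive without pmk-1 KCl replicate 1. With 3 libraries a group, few reads behind low genes such as F43C1.7, and calls that move with the block, the number of called genes is not firm. Their direction was not tested in other libraries.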
